A study of Mus musculus with 25 samples.

Results

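The guanylate-binding protein genes Gbp2, Gbp3, Gbp4, Gbp5, Gbp6, Gbp7, Gbp8 and Gbp9 were taken by symbol from the RNA-seq count tables, so that the set holds 8 of the 24411 genes counted. Guanylate-binding proteins (GBPs) are large GTPases of the dynamin superfamily that interferons induce. They bind GTP through an N-terminal globular domain, assemble on the membranes of pathogen vacuoles and on cytosolic bacteria, and assist caspase activation by inflammasomes. Macrophages are a cell type in which GBPs have been studied in depth, and several members, Gbp2 and Gbp5 among them, end in a CaaX box through which a prenyl group anchors them to membranes.

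The 25 libraries fell into 9 conditions. Of these, 21 came from bone marrow-derived macrophages (BMDMs) of C57BL/6 mice, differentiated over 4 days in M-CSF at 25 ng/ml, and each condition had 3 libraries. They were left as controls, cultured for 4 h, or given LPS at 100 ng/ml for 1, 4, 12 or 24 h after priming by IFN-γ at 100 U/ml (IFN-LPS), or treated with 10 ng/ml IL-4 or 10 ng/ml IL-13 for 12 h. The other 4 came from RAW264.7, a macrophage line from a tumour of Balb/c mice induced by Abelson virus. They were 2 control libraries and 2 of cells given 100 ng/ml LPS for 4 h without IFN-γ. The 4 h BMDM control served every BMDM comparison, so that time in culture and treatment could not be told apart at the other times. BMDMs given LPS without IFN-γ were not analysed here, and the effects of both agents could therefore not be separated. The length of the IFN-γ priming was not given in the sources used here.

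Without the ribosomal precursor gene Rn45s, which took 20.1% to 39.8% of the counts, the libraries held 1502618 to 2532496 counts (median 1776162), and a single count equalled 0.395 to 0.666 CPM, the unit of counts scaled to library size. Levels below are CPM of sense counts without Rn45s. The 7 macrophage markers checked, such as Adgre1 and Csf1r, were detected in every BMDM condition. Their sum moved with the stimulation, from 24619 to 26474 CPM in the controls to 16319 to 17046 CPM at 1 h, 12668 to 13786 CPM at 4 h, 14832 to 17035 CPM at 12 h and 25991 to 29245 CPM at 24 h, and was 20856 to 24173 CPM with IL-4 and IL-13. In RAW264.7 it was 7696 to 9679 CPM, with Mertk at 0. The markers did not move together. At an unadjusted p under 0.05 by edgeR, 2, 3, 2 and 3 of the 7 were higher than the control at 1, 4, 12 and 24 h. At the same times 4, 4, 5 and 3 were lower. Of the 4 T cell markers, Cd3e, Cd3g and Cd8a were at 0 in all conditions, as was the IFN-γ gene Ifng, and Cd4 had 9.90 to 13.7 CPM in control BMDMs and 1.97 to 2.79 CPM at 24 h, where it was called lower (log2 fold change -2.06, SE 0.40, adjusted p = 1.77e-05). B cell markers reached at most 0.511 CPM and NK cell markers 3.66 CPM. Neutrophil markers (S100a8 and S100a9, with Mpo detected in the IL-4 libraries and in RAW264.7 after LPS) summed to 9.53 to 18.0 CPM in control BMDMs and 24.2 to 35.2 CPM at 1 h of IFN-LPS, and fibroblast and endothelial markers to 39.0 to 105 CPM in BMDMs and 0.465 to 1.84 CPM in RAW264.7. Dendritic cell markers summed to at most 1.93 CPM in BMDMs and 3.25 to 5.62 CPM in RAW264.7. The part of such cells in the results was not tested. Antisense reads on Rn45s were 0.0386% to 0.122% of its reads in the control, 1, 4 and 12 h libraries and 0.00603% to 0.0214% in the 24 h, IL-4 and IL-13 libraries, and how that difference between libraries bears on the comparisons that cross it was not tested. In bulk RNA, fewer cells making a transcript and less transcript per cell cannot be told apart.

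The 8 genes lie in clusters on mouse chromosomes 3 and 5 (RefSeq genes, GRCm38.p6, the mm10 assembly). On the plus strand of chromosome 3, Gbp5 (chr3:142496934-142522344), Gbp7 (chr3:142530336-142550151), Gbp3 (chr3:142560016-142573213) and Gbp2 (chr3:142620663-142638008) follow each other, with Gbp2b between Gbp3 and Gbp2, in 141 kb. On the minus strand of chromosome 5, Gbp8 (chr5:105012513-105053609), Gbp9 (chr5:105076464-105110357), Gbp4 (chr5:105115767-105139586) and Gbp6 (chr5:105270702-105295871) share 334 kb with Gbp10 and Gbp11. Their annotated transcripts had 10 to 12 exons and 2.46 to 5.61 kb of exon sequence. Most of these genes shared few windows of 101 bases, the read length, with annotated transcripts of other genes. Of the windows of Gbp2 and Gbp5 0% also occurred in another gene, and of those of Gbp3, Gbp4, Gbp7, Gbp8 and Gbp9 0.417% to 3.69%. Gbp6 was the exception, with 46.3% of its windows in common with other genes, nearly all with its neighbour Gbp10. Reads that fit more than 1 place were set apart in the counting and given to no gene, so the level of Gbp6 may be too low. Windows were compared between annotated transcripts only, so the placement of read pairs on the whole genome was not measured. A microRNA gene on the opposite strand, Mir6381, covers 24 bases of Gbp2 exons, and the strand-specific counts used here set it apart from Gbp2.

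Promoters show what these genes share outside the transcript. Interferon signalling acts on promoters at GAS elements and at interferon-stimulated response elements (ISREs), which IRF family factors bind, and LPS acts through NF-κB at κB sites. The RefSeq promoter table (GRCm38.p6) held 4 of the 8 members, all of chromosome 3. The 250 bases before the start were searched on both strands for GAS (TTCNNNGAA), the ISRE core (GAAANNGAAA) and κB (GGGNNTTTCC), and matches are in capitals below.
Gbp5, chr3:142496684-142496933, plus strand: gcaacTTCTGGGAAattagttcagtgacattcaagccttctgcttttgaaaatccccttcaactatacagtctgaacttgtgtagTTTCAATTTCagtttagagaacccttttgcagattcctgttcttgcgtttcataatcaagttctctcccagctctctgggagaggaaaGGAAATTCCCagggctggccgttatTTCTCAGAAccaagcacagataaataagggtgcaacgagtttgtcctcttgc
Gbp7, chr3:142530086-142530335, plus strand: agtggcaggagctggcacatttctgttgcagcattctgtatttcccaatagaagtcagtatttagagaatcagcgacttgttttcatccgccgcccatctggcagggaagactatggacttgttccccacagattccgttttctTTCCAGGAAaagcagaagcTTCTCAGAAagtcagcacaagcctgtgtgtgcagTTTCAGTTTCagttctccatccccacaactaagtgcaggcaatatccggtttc
Gbp3, first of 2 starts, chr3:142559794-142560043, plus strand: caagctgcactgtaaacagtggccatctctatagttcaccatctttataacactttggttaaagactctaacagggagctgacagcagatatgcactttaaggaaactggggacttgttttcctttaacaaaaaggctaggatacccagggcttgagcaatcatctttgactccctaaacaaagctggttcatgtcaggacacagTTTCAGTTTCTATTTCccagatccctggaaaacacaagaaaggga
Gbp2, chr3:142620413-142620662, plus strand: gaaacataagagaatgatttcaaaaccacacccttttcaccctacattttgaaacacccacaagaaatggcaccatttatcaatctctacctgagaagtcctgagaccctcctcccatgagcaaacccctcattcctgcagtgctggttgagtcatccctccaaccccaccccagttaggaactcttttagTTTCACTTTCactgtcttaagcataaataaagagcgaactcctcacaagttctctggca
All 4 held an ISRE core in the reverse orientation, at bases 165 to 156 before the start of Gbp5, 53 to 44 of Gbp7 and 59 to 50 of Gbp2, and as an overlapping pair at bases 45 to 30 of Gbp3. Of all 32851 promoters in the table, 2.98% held this core. A GAS match was found 2 times each in Gbp5 and Gbp7, against 7.02% of all promoters with at least 1, and TTCTCAGAA occurred in both genes. Gbp5 alone of the 4 held a κB match, GGAAATTCCC, at bases 77 to 68 before the start, against 1.41% of all promoters. Matches to GAS, ISRE core and κB together were found in 4 of the 32851 promoters, namely those of Gbp5, Irf2, Parp11 and Rnase1. The second start of Gbp3 held no match. A match is a description of the letters in this window, and no binding was measured.

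Does IFN-γ-primed LPS stimulation change GBP transcripts, and when? At rest the GBPs were close to silent in BMDMs. Gbp9 was the most abundant of them, with 11.3, 8.34 and 10.5 CPM in the 3 control libraries, the others had 0 to 4.66 CPM in any control library, and Gbp4 had no count. After 1 h of LPS all 8 members were called higher, and they were called higher at 4, 12 and 24 h as well. These times count LPS alone, and with no library of primed cells without LPS, a rise during priming and a rise during the first hour of LPS cannot be told apart. A gene was called when edgeR's quasi-likelihood test, fitted on 15 libraries and 9568 genes, gave it an adjusted p no greater than 0.01 and its log2 fold change reached 1.5 (the study's cutoffs). Of all genes tested, the share called higher was 5.04% after 1 h, 11.4% after 4 h, 8.87% after 12 h and 7.93% after 24 h, and the share called lower was 2.08%, 11.4%, 8.42% and 6.93%. The median log2 fold change of the 8 members was 6.64, 8.92, 8.73 and 7.55, or 5.84, 7.77, 7.72 and 6.62 with Gbp4 set to its fold over a floor of 3 control counts, on total-count CPM, and that of all genes lay between -0.07 and 0.02. As a share of all counts, the 8 genes went from at most 0.00250% in the controls to 0.362% to 0.382% at 1 h and 0.755% to 0.801% at 4 h, and stood at 0.575% to 0.611% at 12 h and 0.261% to 0.299% at 24 h. For most members the control rests on 16 or fewer counts over 3 libraries, where a fitted standard error (SE) can be too small, so fold changes against the control are best read as orders of size. All members but Gbp9 passed the filter on low counts only through the IFN-LPS libraries, where they are high. The number of members called is therefore a description and no independent support.

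**Figure D1:**
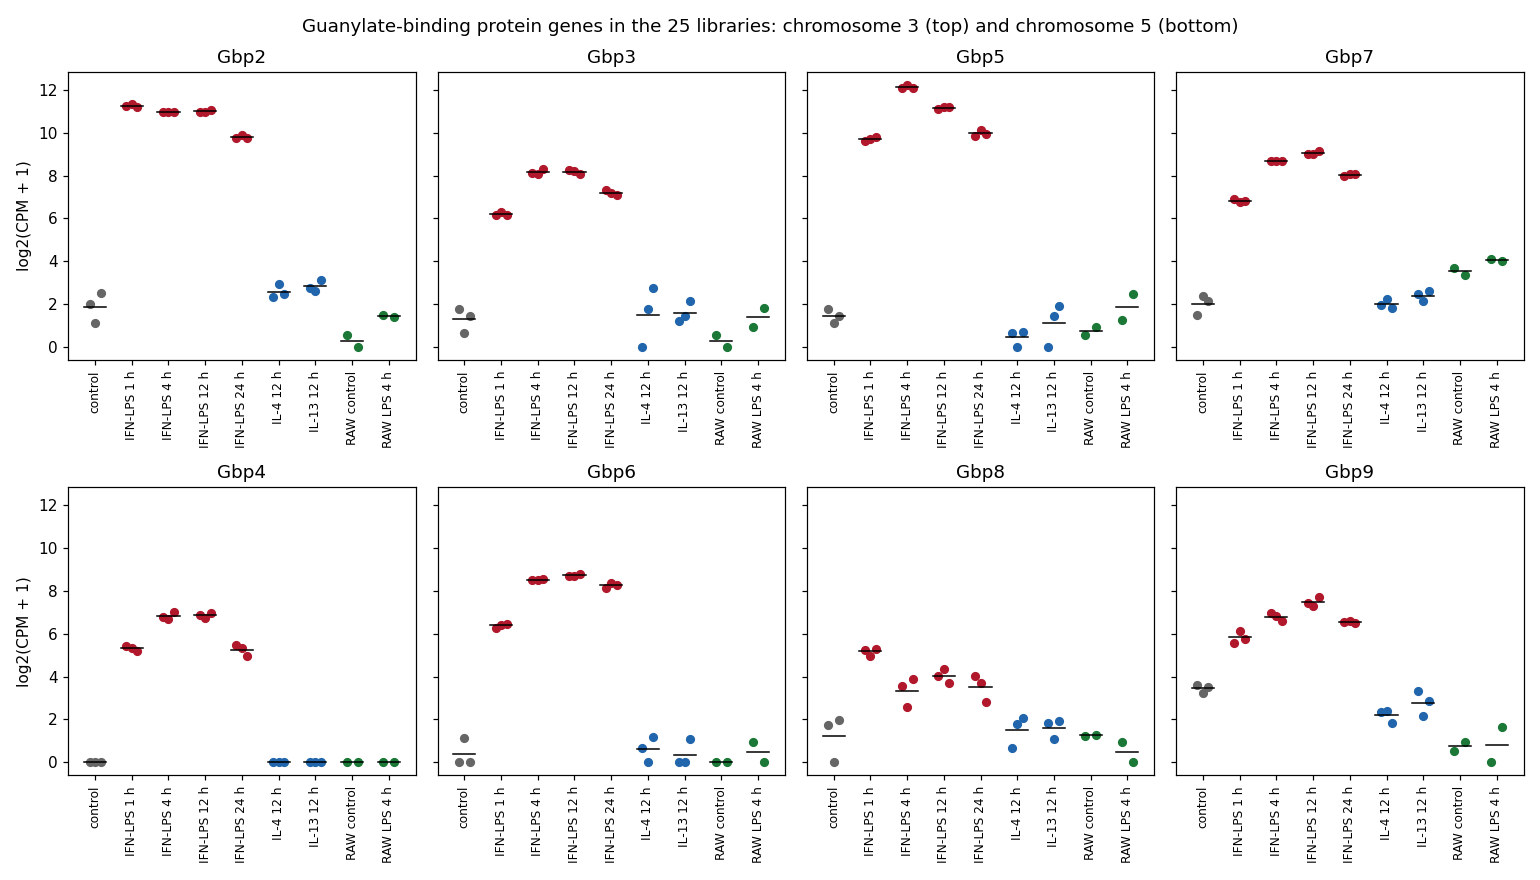
Level of each GBP gene in each of the 25 libraries, as log2(CPM + 1) on the vertical axis, by condition (points are libraries, bars are means of the log values; grey control BMDMs, red IFN-LPS, blue IL-4 and IL-13, green RAW264.7). In all 8 panels the IFN-LPS libraries lie above the control, IL-4, IL-13 and RAW264.7 libraries, by the least for Gbp8 and Gbp9.

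Gbp2 was near its highest level already at 1 h of LPS. This gene encodes a prenylated GBP that takes part in cell-autonomous defence against vacuolar and cytosolic pathogens. Its level was 2.97, 1.19 and 4.66 CPM in the control libraries and 2457, 2578 and 2344 CPM at 1 h, a log2 fold change of 9.85 (SE 0.17, adjusted p = 1.58e-41). It then stood at 1979, 1970.2 and 1981 CPM at 4 h, at 2014, 1992 and 2139.9 CPM at 12 h and at 856, 959.6 and 864 CPM at 24 h. No library of the 1 h group overlapped one of a later time, and the 24 h libraries lay below all other stimulated ones. Between 4 h and 1 h the fitted log2 fold change of Gbp2 was 0.02 (SE 0.09, adjusted p = 0.850), and with total counts in place of TMM scaling it was -0.32 (adjusted p = 0.00101), so the direction of this step rests on the scaling. On CPM the highest mean of Gbp2 was that of 1 h (2459.9 ± 117), and on TMM-scaled CPM that of 4 h (2704, against 2601 at 1 h).

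Gbp5 rose later and further. Gbp5 is the member best known for promoting NLRP3 inflammasome assembly. From 2.38, 1.19 and 1.75 CPM in the controls it went to 788, 828 and 885 CPM at 1 h and 4283, 4794 and 4379.5 CPM at 4 h, when it was the most abundant GBP transcript per length. Against the control, the log2 fold change at 4 h was 11.77 (SE 0.18, adjusted p = 1.22e-43), the 12th largest of the 9568 genes. Its level was 2193, 2349.6 and 2341 CPM at 12 h and 913, 1133 and 984 CPM at 24 h. No 2 of these groups overlapped, and the step from 4 to 12 h was -1.19 (SE 0.09, adjusted p = 7.43e-16), under the cutoff of 1.5.

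Gbp3 and Gbp7, the other members of the chromosome 3 cluster, were higher at 4 h than at 1 h and near their 4 h level at 12 h. Gbp7 has been linked to assembly of the phagocyte NADPH oxidase on vacuoles. It had 1.78, 4.17 and 3.49 CPM in the controls, 118, 109 and 109.9 CPM at 1 h, 404, 404 and 409.8 CPM at 4 h, 515, 514 and 574 CPM at 12 h and 249.8, 272 and 264 CPM at 24 h. Gbp3 had 2.38, 0.596 and 1.75 CPM in the controls, 69.6, 77.3 and 70.9 CPM at 1 h, 276, 266 and 315 CPM at 4 h, 305, 295 and 267 CPM at 12 h and 158, 144 and 135 CPM at 24 h. For Gbp3 the 4 h and 12 h libraries overlapped, and for Gbp7 they did not. Against the control at 4 h, the log2 fold change was 7.96 (SE 0.20, adjusted p = 9.42e-35) for Gbp3 and 7.50 (SE 0.17, adjusted p = 1.66e-36) for Gbp7.

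On chromosome 5, Gbp4 and Gbp6 went from at or near 0 to at least 29.6 CPM in every stimulated library. Gbp4 had 0 counts in all 3 controls, and then 42.0, 39.9 and 35.2 CPM at 1 h, 108, 102 and 128 CPM at 4 h, 116, 104 and 124 CPM at 12 h and 43.3, 39.5 and 29.6 CPM at 24 h. Against a floor of 3 counts over the control group, its pooled level in the 1, 4, 12 and 24 h groups was at least 65.8-, 191-, 196- and 62.7-fold higher. Its libraries at 24 h overlapped those at 1 h. Gbp6 had 2 counts in 1 control library and none in the other two, and 76.5, 84.0 and 87.1 CPM at 1 h, 365, 359.6 and 369 CPM at 4 h, 418, 417 and 441 CPM at 12 h and 277, 329 and 312 CPM at 24 h. The ratio of pooled CPM at 12 h to the control was 1082 (exact 95% interval 299 to 8940 for counting error). Gbp6 kept 71.9% of its highest mean at 24 h, the largest share of the 8 genes, and reads that fit Gbp10 equally well are not in its counts.

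Gbp9 and Gbp8, had the smallest fold changes against the control at all 4 times. Gbp9 had 46.8, 68.9 and 53.3 CPM at 1 h, 123, 111 and 94.5 CPM at 4 h, 170.1, 157 and 212 CPM at 12 h and 93.5, 96.6 and 90.8 CPM at 24 h. Its log2 fold change against the control was 2.66 (SE 0.21, adjusted p = 1.52e-14) at 1 h and 4.46 (SE 0.18, adjusted p = 8.02e-26) at 12 h. Gbp8 was highest at 1 h, with 37.2, 30.2 and 38.1 CPM after 2.38, 0 and 2.91 CPM in the controls, and had 10.6, 5.01 and 13.8 CPM at 4 h, 15.3, 19.4 and 12.0 CPM at 12 h and 15.4, 12.0 and 5.92 CPM at 24 h. All libraries of Gbp8 at 1 h lay above those of later times, which overlapped each other. Its log2 fold change against the control was 4.45 (SE 0.40, adjusted p = 3.58e-11) at 1 h and 2.92 (SE 0.54, adjusted p = 1.83e-05) at 4 h. With the cutoff as the null hypothesis, its calls at 4 h (adjusted p = 0.0150) and 24 h (adjusted p = 0.0300) were lost, which left 7 members called at these times.

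**Figure D2:**
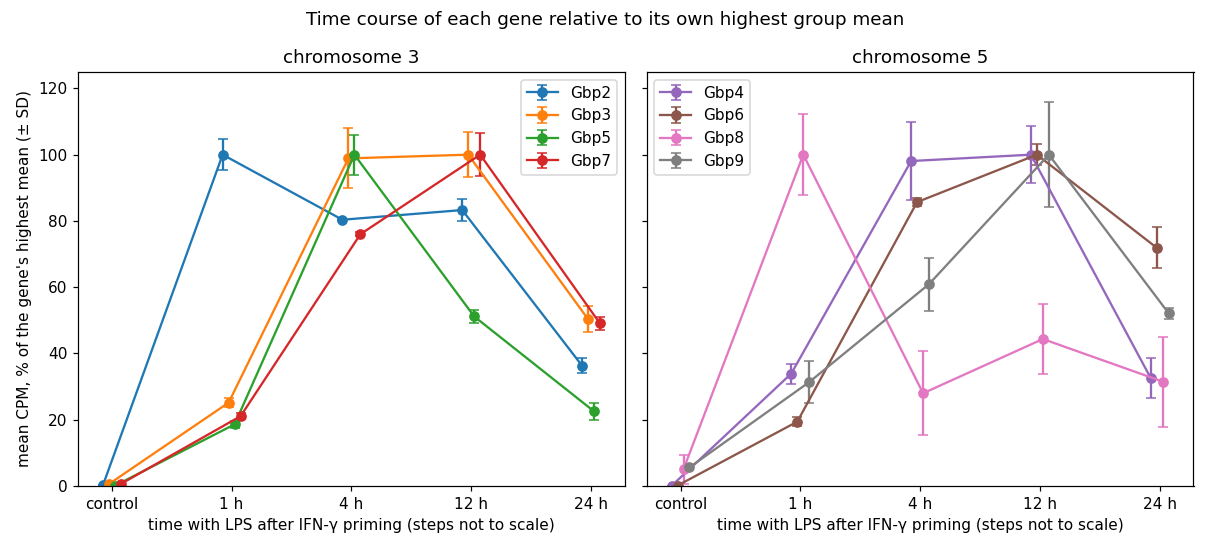
Mean CPM of each gene (± SD of 3 libraries) as a percentage of its own highest mean, over the control and the 4 times of IFN-LPS, for the chromosome 3 genes (left) and the chromosome 5 genes (right). Gbp8 is highest at 1 h, as is Gbp2 on CPM but not on TMM-scaled CPM, and Gbp5 at 4 h, while on this CPM scale, at 4 h, Gbp3 stands at 98.9% and Gbp4 at 98.1% of their 12 h means, and Gbp9 at 60.9%.

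The steps between successive times set the members apart. From 1 to 4 h, 5 of the 8 were called higher (Gbp3, Gbp4, Gbp5, Gbp6 and Gbp7, by 1.87 to 2.77 on the log2 scale) and 1 lower (Gbp8), beside 7.07% and 6.95% of all genes tested. Gbp9 rose by 1.30 (SE 0.14, adjusted p = 8.08e-11), under the cutoff. The call of Gbp8, -1.52 (SE 0.29, adjusted p = 4.21e-05), sat at the cutoff and was lost with unstranded counts (-1.49) and without replicate 1 (-1.49) or replicate 3 (-1.46) of the 1 h group or replicate 2 of the 4 h group (-1.19), with the same direction. From 4 to 12 h edgeR called none of the 8 higher or lower, beside 5.20% and 4.45% of all genes, and DESeq2 called none. At an unadjusted p under 0.05, 1 was higher (Gbp9, by 0.51, SE 0.12, adjusted p = 0.000710) and 2 were lower (Gbp5, and Gbp3 with -0.20, adjusted p = 0.0771, which turned to 0.02 with total counts). From 12 to 24 h all 8 estimates were negative and 7 had an adjusted p of at most 0.01, the exception being Gbp8 (-0.59, SE 0.30, adjusted p = 0.172), but Gbp4 alone passed the cutoff and was called lower (-1.72, SE 0.14, adjusted p = 1.15e-13), beside 0.867% of all genes called lower and 0.418% called higher. Gbp2 (-1.28), Gbp5 (-1.27), Gbp7 (-1.11), Gbp3 (-1.07) and Gbp9 (-1.03) lay between -1.28 and -1.03 and Gbp6 at -0.56 (SE 0.10). The 12 and 24 h libraries also differ in their share of antisense Rn45s reads, and how that bears on this step was not tested.

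These fold changes are relative to the bulk of genes. Scaling by total counts instead of TMM moved the median of all genes against the control by -0.19, -0.52, -0.31 and -0.22 for 1, 4, 12 and 24 h, by -0.34 from 1 to 4 h and by 0.22 from 4 to 12 h. The number of members called was the same under both scalings in every comparison, while the small steps from 4 to 12 h of Gbp2 (-0.17 and 0.05), Gbp3 (-0.20 and 0.02) and Gbp4 (-0.19 and 0.03) turned from negative to positive. On TMM-scaled CPM the means of Gbp3 and Gbp4 were higher at 4 h (391 and 154) than at 12 h (339 and 135), so which of these times was the highest also rests on the scaling.

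**Figure D3:**
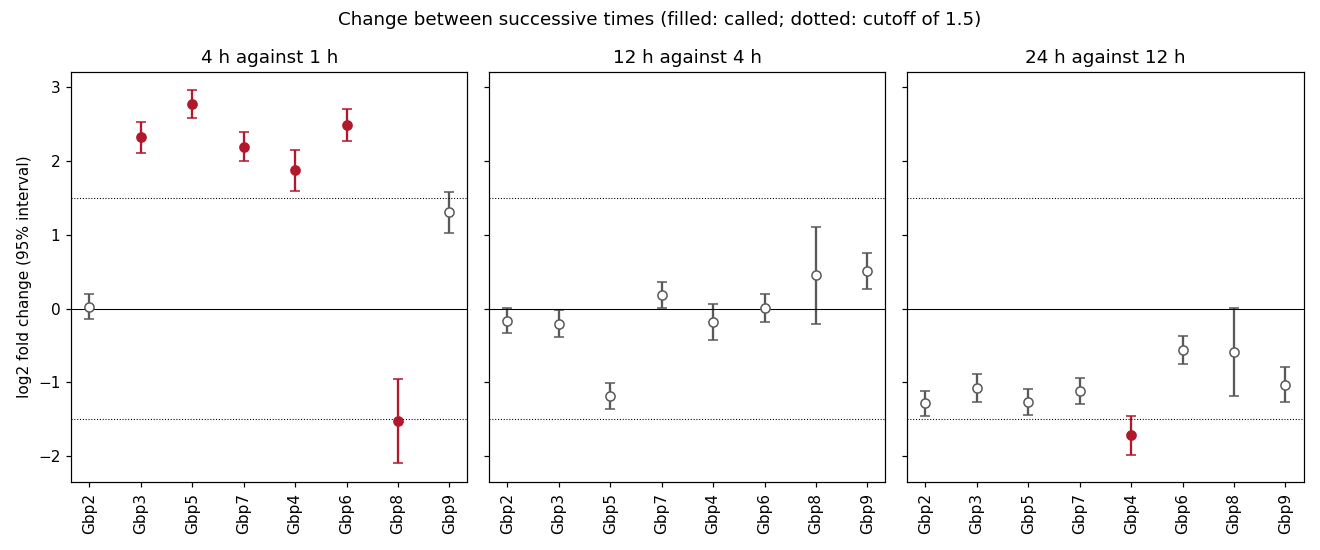
Log2 fold change of each GBP gene between successive times of IFN-LPS, with its 95% interval from the SE. Filled red points were called, open points were not, and the dotted lines mark the cutoff of 1.5. From 1 to 4 h 5 genes lie above the upper line, Gbp2 at 0.02 and Gbp8 at -1.52, and from 12 to 24 h Gbp4 lies below the lower line.

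Division by exon length allowed the members to be ranked against each other. In control BMDMs, Gbp9 led with 2.29 CPM per kb ± 0.348 (SD, n = 3) and did not overlap the next gene, Gbp2, while all 6 neighbours further down, from Gbp2 (1.17) to Gbp6 (0.153), overlapped. At 1 h, Gbp2 led with 978 CPM per kb ± 46.6 and Gbp5 followed with 273 ± 16.1, then Gbp6 (31.7), Gbp3 (23.8) and Gbp7 (20.0), and only the neighbours Gbp8 (14.3) and Gbp9 (12.9) overlapped. At 4 h the order of the first pair was reversed, with 1468 CPM per kb ± 88.9 for Gbp5 and 786 ± 2.29 for Gbp2, and Gbp8 was last at 4.00 ± 1.82. At 12 h Gbp2 (814 ± 31.8) was again above Gbp5 (751 ± 28.8) without overlap, and at 24 h both overlapped (355 ± 22.9 and 331 ± 36.9). In all 4 stimulated groups Gbp6 followed Gbp2 and Gbp5, with 31.7, 140.03, 163 and 118 CPM per kb. Reads that fit Gbp10 equally well are missing from these values of Gbp6, which may be too low.

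By counts, Gbp9 made up 46.9% of the 8 genes' total in control BMDMs (range 41.9% to 50% over libraries), and 1.52% at 1 h. Gbp2 took 66.6% at 1 h (64.7% to 67.6%) and 25.5% at 4 h, and Gbp5 22.6% at 1 h and 57.8% at 4 h (56.7% to 59.8%). At 12 and 24 h both were near each other, with 34.7% and 32.4% for Gbp2 and 38.9% and 36.5% for Gbp5. Gbp6 rose from 2.24% at 1 h to 11.1% at 24 h. A longer transcript yields more counts, so these shares are of counts and not of molecules.

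**Figure D4:**
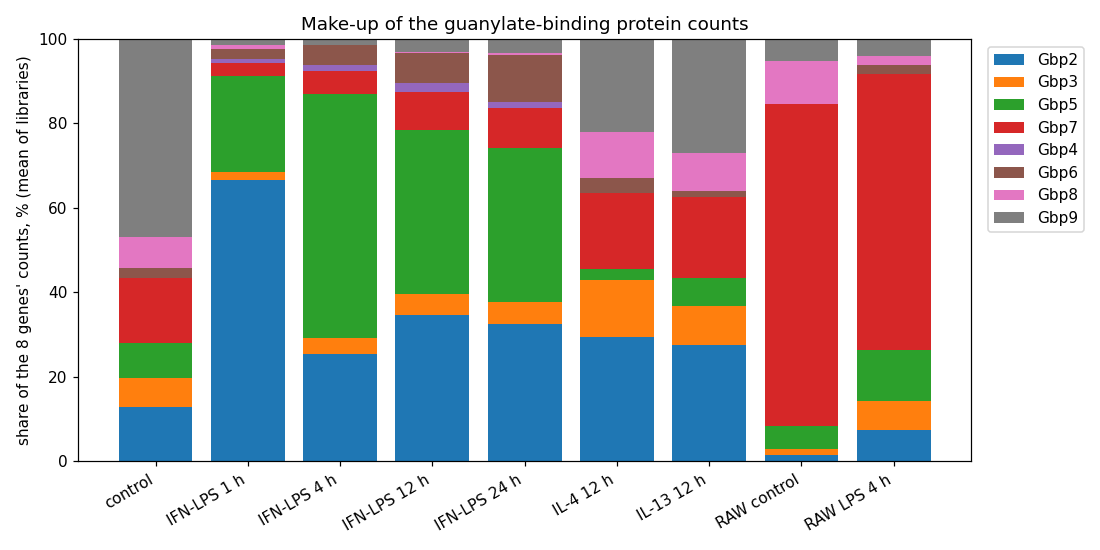
Share of each gene in the summed counts of the 8 GBP genes, in percent, as the mean over the libraries of each condition (stacked bars, vertical axis from 0 to 100). Gbp9 is the largest block in control BMDMs (46.9%), Gbp2 at 1 h (66.6%), Gbp5 at 4 h (57.8%) and Gbp7 in RAW264.7 (76.4% and 65.5%). The bars rest on 86 to 117 counts per group in control, IL-4 and IL-13 BMDMs and 60 to 110 in RAW264.7.

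Do the alternative activators IL-4 and IL-13 act on these genes? At 12 h the 8 GBPs had 0 to 8.99 CPM in the IL-4 and IL-13 libraries, and 7 of them had too few counts to be tested. With IL-4, Gbp2 had 4.06, 6.71 and 4.48 CPM, Gbp7 2.90, 3.66 and 2.56 CPM, Gbp5 0.579, 0 and 0.640 CPM, and Gbp4 had no count with either cytokine. With IL-13, Gbp2 had 5.78, 5.13 and 7.88 CPM, all above the control libraries, from 32 against 15 counts (ratio 2.13, exact 95% interval 1.12 to 4.23 for counting error). Gbp9 alone passed the filter on low counts and was tested. It had 4.06, 4.27 and 2.56 CPM with IL-4 and 8.99, 3.42 and 6.19 CPM with IL-13, after 11.3, 8.34 and 10.5 CPM in the control, so that the IL-4 libraries all lay below the control and 1 IL-13 library lay within it. With IL-4 it was called lower at the study's cutoff of 0.7 for these cytokines (log2 fold change -1.45, SE 0.40, adjusted p = 0.00845), beside 1.64% of all genes called lower. That call was lost without any 1 of the 6 libraries (-1.27 to -1.56, adjusted p from 0.0123 to 0.0577) and with the cutoff as the null hypothesis. DESeq2 gave Gbp9 a log2 fold change of -1.47 but no adjusted p, so it could not be called there. The control and IL-4 libraries also differ in their share of antisense Rn45s reads. With IL-13 edgeR called no member (Gbp9 -0.75, SE 0.35, adjusted p = 0.147), beside 2.98% of all genes called higher and 2.38% lower, and DESeq2 called none, while at an unadjusted p under 0.05 this 1 member was lower. IL-13 against IL-4 gave 0.69 (95% interval -0.17 to 1.56) for Gbp9, and it was not called by edgeR (unadjusted p under 0.05 for 0 members) or DESeq2, beside 0.0540% of all genes called higher and 0.0108% lower.

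At the shared time of 12 h, all 8 members were called higher with IFN-LPS than with IL-4 and than with IL-13, beside 8.59% and 8.60% of all genes called higher and 7.49% and 7.40% called lower (cutoff 1.5, 12 libraries fitted). The log2 fold change against IL-4 was 7.78 for Gbp7 (SE 0.18), 7.09 for Gbp3 (SE 0.23), 5.96 for Gbp9 (SE 0.22) and 3.24 for Gbp8 (SE 0.44). Gbp2 was 405 times higher in pooled level (exact 95% interval 274 to 625). Gbp5 had 2 counts over the IL-4 group, and its pooled level with IFN-LPS was 5651 times higher (exact 95% interval 1564 to 46669). Gbp4 was at least 189.9-fold higher than with IL-4 and 196-fold higher than with IL-13. Both comparisons and those against the control share libraries and are not independent. Here too, all members but Gbp9 passed the filter on low counts only through the IFN-LPS libraries. The IFN-LPS 12 h libraries also differ from the IL-4 and IL-13 libraries in their share of antisense Rn45s reads. How that bears on these comparisons was not tested.

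RAW264.7 cells express another mix of GBPs. Gbp7 was the main one, with 11.9 and 9.36 CPM in the control libraries and 16.3 and 15.1 CPM after LPS, and it made up 76.4% and 65.5% of the 8 genes' counts. The other 7 had 0 to 1.40 CPM in the control and 0 to 4.60 CPM after LPS, and Gbp4 had no count in any of the 4 libraries. Gbp7 was the only member tested, and edgeR did not call it at the study's cutoff of 2 (log2 fold change 0.73, SE 0.29, adjusted p = 0.0347, unadjusted p under 0.05 for this 1 member), beside 2.39% of all genes called higher and 0.829% lower, and DESeq2 called none. By counts over both libraries, Gbp2 and Gbp3 each went from 1 to 8 (ratio 7.60, exact 95% interval 1.02 to 337) and Gbp5 from 3 to 14 (ratio 4.43, 1.24 to 24.0), while Gbp8 went from 6 to 2 (ratio 0.316, 0.0312 to 1.77). These intervals cover counting error only.

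Between the cell types, edgeR on 10 libraries and 10269 genes called 2 of the 8 members lower in control RAW264.7 cells than in control BMDMs, beside 12.7% of all genes. They were Gbp9 (-3.98, SE 0.57, adjusted p = 2.62e-10) and Gbp2 (-3.55, SE 0.87, adjusted p = 0.000180). The latter rests on 1 against 15 counts, and its call was lost with DESeq2 (adjusted p = 0.0128) and without replicate 2 of the RAW264.7 control (-2.75). Members low in both controls passed the filter on low counts only through the IFN-LPS BMDMs in this fit. With the 2 control groups alone, 2 members were tested and 1 was called lower. Gbp7 was higher in RAW264.7 by 1.46 (SE 0.39, adjusted p = 0.000384), under the cutoff. At 4 h all 8 were called lower in LPS-treated RAW264.7 cells than in IFN-LPS BMDMs, beside 16.0% of all genes called lower and 12.6% called higher. The pooled level in BMDMs was 1461-fold that of RAW264.7 for Gbp5, 1123-fold for Gbp2, 162-fold for Gbp3, 99.1-fold for Gbp9 and 26.0-fold for Gbp7. For Gbp6 and Gbp8, with 2 counts each over the RAW264.7 libraries, it was 828-fold (exact 95% interval 229 to 6844) and 22.0-fold (5.76 to 187), and for Gbp4 at least 171-fold.

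The change with stimulation differed between the cell types for 3 members in a test of the difference itself, beside 5.04% of all genes called lower. The RAW264.7 change minus the BMDM change was -6.86 for Gbp7 (SE 0.43, adjusted p = 3.45e-32), -9.67 for Gbp5 (SE 1.62, adjusted p = 1.64e-07) and -4.36 for Gbp8 (SE 1.25, adjusted p = 0.00289). The value for Gbp8 rests on 8 RAW264.7 counts and lost its call without replicate 1 (-4.39) or 2 (-4.33) of the RAW264.7 control and without replicate 2 of RAW264.7 LPS (-3.37). The estimates for Gbp2 (-7.24, SE 2.54, adjusted p = 0.0213), Gbp3 (-5.33, SE 2.44, adjusted p = 0.0770) and Gbp9 (-3.27, SE 1.30, adjusted p = 0.0376) were not called, and Gbp4 and Gbp6, with 0 counts in RAW264.7 controls, gave no usable estimate. DESeq2 called 7 members here, with Gbp2 (-6.87) and Gbp3 (-4.99) besides those of edgeR. Its calls include Gbp4 and Gbp6, which have no usable estimate, and its share of all genes called was not read out. Cell type, mouse strain and, after stimulation, IFN-γ differ together in these comparisons and cannot be told apart.

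The files hold 3 further Gbp genes, at low level. Gbp11, annotated as a transcribed pseudogene, had 1 count over the control libraries and 9.98, 11.1 and 10.8 CPM at 4 h, and was called higher at 4 h (log2 fold change 5.81, SE 0.68, adjusted p = 3.32e-10), 12 h (5.08) and 24 h (5.07), but not at 1 h (3.18, adjusted p = 0.0107). Gbp2b, which lies between Gbp3 and Gbp2 and whose promoter also holds an ISRE core, had no control count and at most 9 counts in any library (4.78 CPM, at 1 h). It and Gbp10, with at most 12 counts in a library, were too low to test.

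How did genes that act with the GBPs change? Of the 6 immunity-related GTPases in the files, partners of the GBPs on pathogen vacuoles, 5 were called higher at 1 h and 6 at each of 4, 12 and 24 h, with medians of 4.28, 8.26, 7.53 and 6.37. The largest change was that of Tgtp2 at all 4 times, from 0 counts in the controls to 273 CPM at 4 h. The smallest was that of Irgm2, a regulator of the effector GTPases, with -0.33 (SE 0.22, adjusted p = 0.269) at 1 h and 4.96 (SE 0.14, adjusted p = 1.86e-33) at 4 h, while all 8 GBPs were called higher at 1 h. The share of all genes called higher at 1, 4, 12 and 24 h was 5.04%, 11.4%, 8.87% and 7.93%. Of 10 genes of IFN-γ signalling, 3, 7, 5 and 5 were called higher at the 4 times, and of 5 genes that restrain it 1, 4, 3 and 3. Irf1, a transcription factor that binds ISREs, had the largest change of the former at 1 h, from 48.5 to 1488 CPM (log2 fold change 5.13, SE 0.11, adjusted p = 2.90e-37), and Stat2 the smallest (-0.79, adjusted p = 0.000804). Among the restraining genes, Socs3 led at 1 and 4 h (9.54 and 9.76) and Usp18 at 12 and 24 h (9.41 and 8.81), while the lowest were Socs1 at 1 h (-0.15, adjusted p = 0.908) and Ptpn11 later (0.46 to 1.06). In the fit of control, IL-4 and IL-13 libraries, 3 of these 5 genes passed the filter on low counts. The others had few control counts, where a large fold is best read as an order of size.

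None of the 5 prenylation enzyme genes tested by edgeR, which attach or process the lipid at the CaaX box, was called at any of the 4 times, and their median log2 fold change lay between -0.16 and 0.07. At an unadjusted p under 0.05, 1, 0, 2 and 0 were higher and 1, 1, 1 and 0 lower. DESeq2 was read out for the GBPs only. At 12 h the largest was Pggt1b, a subunit of a protein prenyltransferase (0.73, SE 0.31, adjusted p = 0.0415), and the smallest Icmt (-0.45, SE 0.15, adjusted p = 0.00713). Of 12 genes of ATG8 conjugation and ubiquitin ligation, edgeR called no gene at 1 h and 1 in each direction at 4, 12 and 24 h. Of all genes tested, 5.04%, 11.4%, 8.87% and 7.93% were called higher at the 4 times and 2.08%, 11.4%, 8.42% and 6.93% lower. At an unadjusted p under 0.05, 1, 5, 6 and 4 of the 12 were higher and 5, 5, 4 and 6 lower at the 4 times, so that most of the list differed from the control, in both directions. The gene called higher was Trim21 each time, an interferon-induced ubiquitin ligase (3.78 at 4 h, SE 0.18, adjusted p = 5.54e-24), and those called lower were Atg7 at 4 h (-1.55, SE 0.15, adjusted p = 1.65e-12) and Map1lc3a at 12 h (-1.72) and 24 h (-1.60). Of 8 inflammasome genes 3, 7, 6 and 5 were called higher, with Il1b the largest at each time (9.89 at 1 h and 11.44 at 4 h) and Pycard, the adaptor ASC, the smallest at 4, 12 and 24 h (-0.07, 0.19 and 0.28). In the fit of control, IL-4 and IL-13 libraries, 6 of these 8 genes passed the filter on low counts, and the others had few control counts. In RAW264.7, Pycard had no count in control cells, against 57.5 CPM in control BMDMs.

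With IL-4, 2 of 10 IFN-γ signalling genes were called higher, beside 2.22% of all genes, with Jak2 the largest (1.19, SE 0.11, adjusted p = 3.90e-12). With IL-13 likewise 2 were called higher (Jak2 1.68), beside 2.98% of all genes. Socs1 was called higher with both (2.98 and 3.68). None of the 3 immunity-related GTPases tested was called with either cytokine by edgeR, with Irgm1 at 0.19 and 0.32, and at an unadjusted p under 0.05 0 were higher with IL-4 and 1 with IL-13. In RAW264.7 after LPS, 2 of the 3 immunity-related GTPases tested were called higher (Irgm2 2.31, SE 0.24, adjusted p = 3.25e-21), beside 2.39% of all genes. Il1b rose by 11.99 on the log2 scale.

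**Figure D5:**
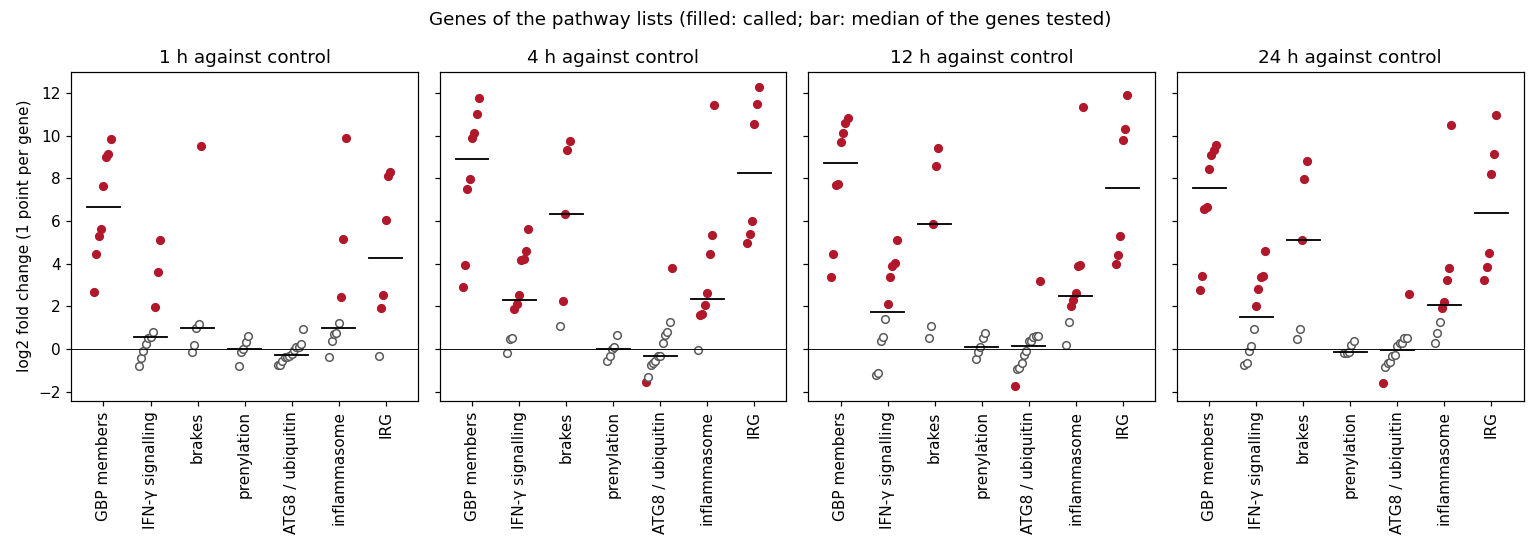
Log2 fold change of IFN-LPS against control BMDMs at 1, 4, 12 and 24 h for each tested gene of the GBP set and of 6 lists of genes that act with GBPs (1 point per gene, filled red where called, horizontal bars are medians, IRG immunity-related GTPases). The GBP and IRG medians are 6.64 and 4.28 at 1 h and 8.92 and 8.26 at 4 h, and the prenylation genes lie near 0. Values of Gbp4, Gbp6 and Tgtp2 rest on 0 to 2 control counts, and those of the other GBPs except Gbp9 on 8 to 16. Some genes of the brake and inflammasome lists also had few control counts.

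Over the 9 condition means of log2(CPM + 1), the profiles of the 8 members were alike, with a median Pearson r of 0.959 over the 28 pairs, the highest for Gbp4 and Gbp5 (0.994) and the lowest for Gbp7 and Gbp8 (0.797). The profiles share libraries and are led by the contrast of IFN-LPS with the rest, and are given as a description. The 5 genes outside the set most like the members' mean profile, of 10671 with a mean of at least 5 CPM in a condition, were Cxcl9, a chemokine induced by IFN-γ (r = 0.997), F830016B08Rik (0.995), Dnase1l3 (0.993), Pla2g16 (0.992) and Ctsc, the protease cathepsin C (0.991). Cxcl9 went from 0.393 CPM in controls to 834, 1304, 1294 and 612 CPM and was at 0 in the IL-4, IL-13 and RAW264.7 conditions. By single member, the most alike were Gm1966 for Gbp2 (r = 0.991), AW112010 for Gbp3 (0.991), F830016B08Rik for Gbp4 (0.998), the immunity-related GTPase Iigp1 for Gbp5 (0.994), Il12b for Gbp6 (0.996), Zfp558 for Gbp7 (0.990), Ly6a for Gbp8 (0.960) and Rab32 for Gbp9 (0.989). Among the members themselves, Gbp3 was nearest to Gbp2, Gbp6 and Gbp9, Gbp5 to Gbp4 and Gbp7, and Gbp2 to Gbp8 (0.946).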

How the data were processed

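RNA of 25 libraries, prepared with a strand-specific kit after rRNA depletion, was sequenced in paired 101-cycle reads. The authors trimmed reads with Trimmomatic 0.33 after CASAVA 1.8.2, aligned them to mm10 with STAR 2.5.1 and deposited raw read counts per gene, unnormalized, for 24411 genes in unstranded, sense and antisense columns. The antisense and unstranded columns served checks. Unassigned rows (62.7% to 69.1% of reads without a feature) and Rn45s stayed out of library sizes and tests.

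Sense counts were tested with edgeR 4.0.16 (R 4.3.3; filterByExpr, TMM, robust quasi-likelihood, Benjamini-Hochberg over all genes tested) in separate fits for the time course, IL-4 and IL-13, IFN-LPS against both, RAW264.7, and RAW264.7 against BMDMs. Calls needed an adjusted p of at most 0.01 and the study's log2 cutoffs of 1.5, 0.7 (IL-4, IL-13) or 2 (RAW264.7). SE was the log2 fold change divided by the root of F. Replicates are independent RNA samples per the study's methods. The edgeR and DESeq2 fits were tested on simulated counts with known changes in well-counted genes. The difference of changes, the other steps and changes in genes with few counts were not tested in this way. Alternatives were DESeq2 1.42.0, other scalings, filters and fits, unstranded counts, the cutoff as null hypothesis, the replicate block and leaving out each library. Ratios of pooled counts have exact 95% intervals, and against 0 counts a floor of 3 per group. Intervals and floors cover counting error only.

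All 8 members are named, with the largest and smallest change of each list, except for 1 gene that is not reported here. Members, lists and tests were chosen with earlier results of these data known. The replicate numbers did not pair the samples: deviations from the group means of same-numbered time course libraries had a mean correlation of 0.0216, with 3 of 30 pairs over 0.1.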

Additional observations from a re-analysis of the deposited data

Results flagged for a closer look

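The change with stimulation at 4 h differed between RAW264.7 cells and BMDMs in a test of the difference itself, -9.67 on the log2 scale for Gbp5, -6.86 for Gbp7 and -4.36 for Gbp8, where the BMDMs had received IFN-γ with LPS and RAW264.7 cells LPS alone. Antisense reads, which entered the comparisons only in the check with unstranded counts, were found on the 8 GBP genes after IFN-LPS. The counts of the 1, 4, 12 and 24 h groups were 71, 226, 177 and 47, against 0 in the control BMDMs, where the sense counts were 110. As a percentage of the sense counts they were 0.342%, 0.587%, 0.518% and 0.249%. Over all genes, sense counts were 93.9 to 158 times the antisense counts in the 25 libraries, so the GBP percentages lay below the general antisense share. Gbp5 held 142 of the 226 counts at 4 h, and Gbp8 had 0 at 1 h. Whether these reads come from antisense transcripts was not tested.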

How the results depend on the processing

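Of 678 recomputed counts of members called, 652 stayed within 1.5 times the reported count, and of 2116 recomputed log2 fold changes 2073 kept direction and call, 24 lost a call, 5 gained one and 14 changed sign. The cause of each change below was not tested unless stated. DESeq2 called 0 members lower with IL-4 (1 in edgeR), where it gave Gbp9 no adjusted p. It called 1 lower in control RAW264.7 than in control BMDMs (2) and 7 lower in the difference of changes (3). Of those 7, Gbp4 and Gbp6 had no usable estimate. Under a filter of 10 counts in each library, Gbp9 alone was left to test in the time course, so 1 member was called higher at 1, 4, 12 and 24 h, and 0 higher or lower from 1 to 4 h and 0 lower from 12 to 24 h. Gbp7 alone was left in RAW264.7 after LPS (0.71, not called), and the other comparisons had no member to test. Unstranded counts gave 0 lower from 1 to 4 h. With the cutoff as the null hypothesis, 0 were lower from 1 to 4 h, from 12 to 24 h and with IL-4, and 1 in control RAW264.7, and calls were also lost for Gbp8 against the control at 4 h (adjusted p = 0.0150) and 24 h (0.0300), for Gbp4 from 1 to 4 h (0.0223) and for Gbp8 in the difference of changes (0.168). Fitting only the 2 groups compared left 2 members tested and 1 lower in control RAW264.7. Leaving out 1 library gave 0 to 1 lower from 1 to 4 h, 0 to 1 with IL-4 and 1 to 3 in control RAW264.7. In RAW264.7 such a fit leaves a lone library, assumed to vary like the other groups. Signs turned for small steps. With total counts Gbp2 went to -0.32 from 1 to 4 h, and Gbp2, Gbp3 and Gbp4 to 0.052, 0.016 and 0.032 from 4 to 12 h. Gbp6 from 4 to 12 h (0.0055) went to -0.0066 with DESeq2 and with its size factors and to -0.0039 with unstranded counts, and without 1 library ranged from -0.0406 to 0.034, as Gbp2 from 1 to 4 h did from -0.0105 to 0.0672. With the replicate block, whose numbers did not pair the samples, 8 members were higher at 1 h, as without it, and no count of calls moved by over 1.5 times. Depth limits the control, IL-4, IL-13 and RAW264.7 values, where most members had few counts.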
